A study of Mus musculus with 6 samples.

Results

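The UDP-sugar and hexosamine supply enzymes are a set of 10 genes, Ugdh, Ugp2, Gfpt1, Gfpt2, Gnpnat1, Pgm3, Uap1, Nagk, Ogt and Oga, chosen by name and matched through their NCBI Gene identifiers. All 10 were found among the 17909 genes listed in at least 1 library, and each was listed in all 6 libraries. The libraries are of primary hepatic stellate cells, the liver pericytes that store retinoids, taken from male C57BL/6 mice aged 24 weeks and collected at day 1 of culture, after 4 h of attachment and a further 14 h in medium with 10% serum. In the HAS2_Tg group (ASMA-HAS2 Tg, replicates 4, 5 and 6) the mice carried a human HAS2 transgene under the alpha smooth muscle actin promoter, which is active in activated stellate cells and in smooth muscle. In the Has2_KO group (Has2 f/f Lrat-cre, replicates 7, 8 and 9) Has2 was deleted by a Cre recombinase that is driven by Lrat, a gene of stellate cells. No wild-type or Cre-negative group was analysed here, so a difference between the groups cannot be assigned to either genotype. The labels do not say whether the 3 libraries of a group came from separate mice, so the p-values measure the spread between these libraries, which may be technical.

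Hyaluronan, the product of Has2, is a chain of alternating glucuronic acid and N-acetylglucosamine (GlcNAc), and the synthase builds it from UDP-glucuronate and UDP-GlcNAc in the cytosol. UDP-glucuronate is made by Ugp2, which joins UTP to glucose 1-phosphate, and Ugdh, which oxidises the UDP-glucose so formed. UDP-GlcNAc is made by the hexosamine pathway, in which Gfpt1 or Gfpt2 transfers the amide nitrogen of glutamine to fructose 6-phosphate in the rate-limiting step, and Gnpnat1, Pgm3 and Uap1 then acetylate, isomerise and activate the sugar. Nagk returns free GlcNAc to the pathway, Ogt attaches GlcNAc from UDP-GlcNAc to nuclear and cytosolic proteins, and Oga removes it.

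The start regions of 4 genes are shown because Gfpt2, Gfpt1 and Ugdh were called lower in HAS2_Tg in every alternative analysis except a test against a fold of 1.5, which kept Gfpt2 alone, and because Nagk was the only member called higher. Each line gives the 250 bases before the annotated start on the gene's own strand, from RefSeq (GRCm38.p6). Capitals mark matches on either strand to 4 motifs. The first, ACGTG, is part of many hypoxia and unfolded protein response elements. The second, TGACGT, is found in cyclic AMP response elements. The third, GGGCGG, is the GC box of Sp1 family factors, and the fourth, CCAAT, is the box bound by NF-Y. The Gfpt2 line is chr11:49793905-49794154, the Gfpt1 line chr6:87042596-87042845 and the Nagk line chr6:83794750-83794999, all on the plus strand, and the Ugdh line is chr5:65435843-65436092 on the minus strand.
Gfpt2: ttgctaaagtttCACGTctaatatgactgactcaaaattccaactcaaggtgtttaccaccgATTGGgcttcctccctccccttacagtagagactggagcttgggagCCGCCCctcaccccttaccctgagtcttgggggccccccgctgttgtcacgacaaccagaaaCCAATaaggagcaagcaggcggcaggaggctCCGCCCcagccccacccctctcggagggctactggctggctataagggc
Gfpt1: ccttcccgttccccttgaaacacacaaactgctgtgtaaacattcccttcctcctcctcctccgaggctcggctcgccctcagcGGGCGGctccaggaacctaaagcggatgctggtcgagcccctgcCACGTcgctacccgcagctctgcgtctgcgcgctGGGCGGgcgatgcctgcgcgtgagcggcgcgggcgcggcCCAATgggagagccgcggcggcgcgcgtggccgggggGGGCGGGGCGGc
Ugdh: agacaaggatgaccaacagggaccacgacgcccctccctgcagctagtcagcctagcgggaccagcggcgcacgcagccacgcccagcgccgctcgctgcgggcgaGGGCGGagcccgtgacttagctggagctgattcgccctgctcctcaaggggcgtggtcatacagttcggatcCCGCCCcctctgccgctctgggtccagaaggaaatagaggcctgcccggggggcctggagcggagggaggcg
Nagk: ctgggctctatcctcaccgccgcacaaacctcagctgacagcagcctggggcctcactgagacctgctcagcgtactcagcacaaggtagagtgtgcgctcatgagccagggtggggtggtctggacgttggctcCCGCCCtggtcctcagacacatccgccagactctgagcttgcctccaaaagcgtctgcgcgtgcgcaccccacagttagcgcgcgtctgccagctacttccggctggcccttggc

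Both amidotransferase genes held the same kinds of letters in this window, while Ugdh and Nagk held only GC boxes. Over the 300 bases from 250 before to 50 after the start, Gfpt2 had 1 response element core, 2 GC boxes and 2 NF-Y boxes, and Gfpt1 had 1, 4 and 1. The same kinds were in Pgm3 (1, 5 and 2), in Uap1 (1, 6 and 1) and in a window of Ugp2 (1, 1 and 2). In Pgm3 and Uap1 the response element core lay after the start. Before the start, among the member windows, it was only in Gfpt2, Gfpt1 and that window of Ugp2. The 3 kinds were thus not particular to the amidotransferase genes or to members called lower, as Uap1 and Ugp2 were not called. Ugdh had 3 GC boxes, 1 of them after the start and so not shown, and Nagk had 1. Of 32851 such windows in the reference, 35.7% held a GC box, 37.4% an NF-Y box, 19.6% the response element core and 7.51% the cyclic AMP motif. The E-box CACGTG, which contains the response element core and was also searched, was in 7.15% of all windows and in none of the member windows. In all, 9 of the 10 members had a window, Ogt and Ugp2 had 2 each, and every one of the 11 windows held a GC box. Uap1 was the only member with the cyclic AMP motif, at 2 places. These are matches of letters and not binding sites, and they were not tested against the expression values.

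Total expected counts were 11961726 to 12423220 per library, and the members had between 176 and 2233 counts in any library. The targeted gene Has2 was counted 847, 889 and 835 times in HAS2_Tg and once in every Has2_KO library, a pattern that matches the knockout label. Reads of the human transgene count here only as far as they aligned to mouse Has2, so this does not check the transgenic label. HAS2_Tg replicate 4 stood apart from replicates 5 and 6, with 1.59% of its counts on 1 unnamed identifier that took 0.0268% to 0.156% elsewhere. Stellate cell markers were present in both groups, with a summed level of 11709 to 12705 CPM (counts scaled to a fixed library total) over 16 markers in HAS2_Tg and 8172 to 8606 in Has2_KO. They were not equal between the groups. Of the 16 tested, 12 were higher and 1 lower in HAS2_Tg (median log2 fold change 0.75), or 10 and 2 with total counts. Markers of other liver cells were not equal between the groups either. The 18 macrophage markers summed to 15.3 to 17.6 CPM in HAS2_Tg and 622 to 666 in Has2_KO, and all 17 that were tested were lower in HAS2_Tg (median log2 fold change -5.73). The 18 endothelial markers summed to 128 to 141 and 1352 to 1432 CPM, and all 18 were lower (median -6.10). Most of their sum in HAS2_Tg was Bmp2 (105.2 ± 5.54 against 241.6 ± 9.62 CPM, SD, n = 3), while Cdh5 had 1.76 ± 0.47 against 402.3 ± 17.5 CPM. Clec4f and Timd4 of the Kupffer cells and Emcn of the endothelium had no count in any HAS2_Tg library. The 18 hepatocyte markers summed to 451 to 525 CPM in HAS2_Tg and to 316 to 340 in Has2_KO, and in both groups most of the sum was Ass1 (452.6 ± 41.1 and 255.1 ± 5.81 CPM). Most other hepatocyte markers ran the opposite way: of 11 tested, 9 were lower in HAS2_Tg and Ass1 alone was higher (median -2.91), with Alb at 0.88 ± 0.31 against 23.4 ± 4.44 CPM. Among 10 cholangiocyte markers the sums were 3.32 to 3.77 and 28.2 to 31.7 CPM, among 10 neutrophil markers 30.1 to 34.9 and 37.5 to 40.5, and among 13 lymphocyte markers 1.41 to 2.43 and 2.91 to 3.59. Most of the neutrophil sum was Cxcr2 (31.37 ± 2.26 against 30.77 ± 2.06 CPM), which was not called. Of 3 neutrophil markers tested, the other 2, Mmp8 and Csf3r, were lower in HAS2_Tg. Of all 10, 5 had no count in any HAS2_Tg library and 3 had none in any Has2_KO library. None of the lymphocyte markers had enough counts to be tested. The 6 mesothelial markers summed to 0.0874 to 0.436 CPM in HAS2_Tg and 3.89 to 4.94 in Has2_KO. Most of the Has2_KO sum was Wt1 (0.15 ± 0.18 against 4.08 ± 0.55 CPM), the only mesothelial marker tested. The 12 portal fibroblast and vascular smooth muscle markers summed to 1774 to 2093 and 459.7 to 486 CPM, mostly through the muscle genes Myh11 (1270 ± 127 against 108.2 ± 6.58 CPM) and Lmod1 (329 ± 37.5 against 62.1 ± 4.56 CPM). Of 10 tested, 6 were higher and 3 lower in HAS2_Tg (5 and 4 with total counts), the lower ones being Thy1, Cd34 and Fbln2. The part of these cells in the differences below was not tested, and in RNA from a mixed culture fewer cells of a type and less RNA per cell cannot be told apart.

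Of the 10 members, 4 were lower in HAS2_Tg than in Has2_KO (Gfpt2, Gfpt1, Ugdh and Pgm3), 1 was higher (Nagk), and 5 did not pass the test (edgeR's quasi-likelihood test, adjusted p under 0.05). Among all 13014 genes tested, 40.7% were called, 20.5% as lower and 20.2% as higher, so the members' share of 5 in 10 was near the background, with more of it on the lower side. The median log2 fold change, HAS2_Tg minus Has2_KO, was -0.10 over the members and -0.01 over all genes tested. These values use the trimmed mean of M-values (TMM), which sets libraries level on the bulk of genes. Scaling by total counts instead moved the median of all genes to -0.18, turned the calls over all genes from 2625 higher and 2673 lower to 1477 and 4827, and gave 0 members higher and 8 lower, beside 11.3% and 37.1% of all genes. Scaling by total counts moved every gene by about the same amount, so a gene's place relative to the median could hardly change. That Gfpt2, Gfpt1, Ugdh and Pgm3 stayed below the shifted median, and Nagk above it, is therefore no separate test. Without HAS2_Tg replicate 4, the library that stood apart, the members called were the same 5 in the same directions.

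**Figure D1:**
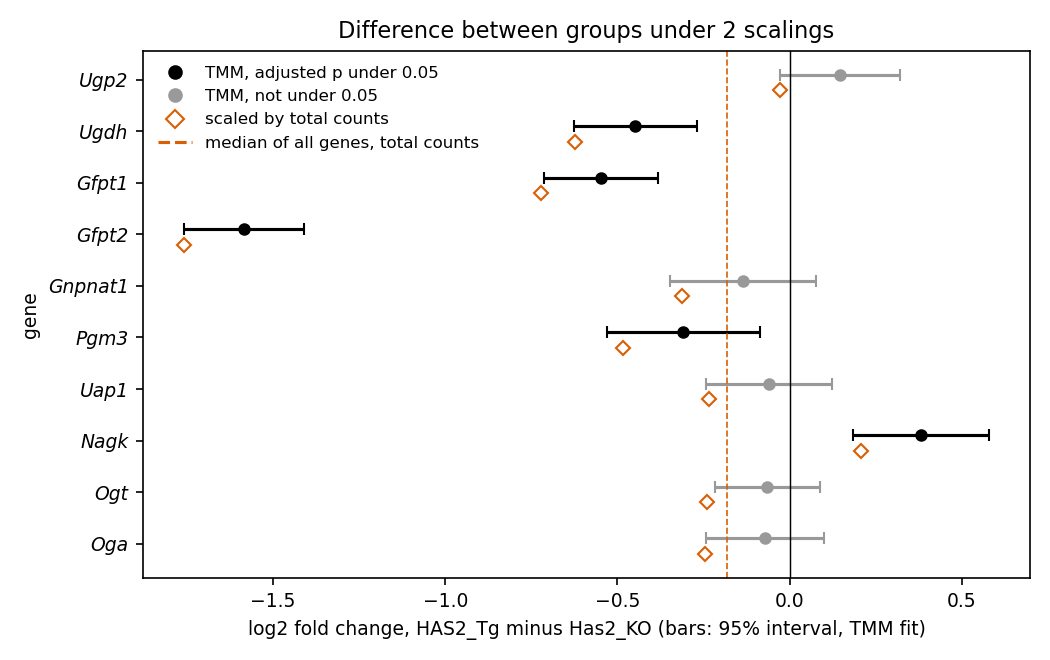
Log2 fold change of each member (x axis, HAS2_Tg minus Has2_KO) with its 95% interval from the TMM fit, in pathway order from top to bottom, black where the adjusted p was under 0.05. Open diamonds are the same values after scaling by total counts, which moves every gene left by about the same amount, and the dashed line is the median of all genes under that scaling (-0.18). Gfpt2 lies apart from the other members under both scalings.

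The 2 genes of the rate-limiting step, Gfpt1 and Gfpt2, were both lower in HAS2_Tg. Gfpt2, on chromosome 11 (49794155 to 49838620, GRCm38), stood at 43.6, 41.6 and 44.7 CPM in HAS2_Tg replicates 4, 5 and 6 and at 127.7, 140.0 and 121.9 CPM in Has2_KO replicates 7, 8 and 9. Every knockout library was above every transgenic library, and the spread within a group was small beside the gap. The level was 3.0-fold lower in HAS2_Tg (log2 fold change -1.59, SE 0.08, edgeR adjusted p = 7.07e-10, n = 3 and 3), and 5.44% of tested genes had a more negative change. Gfpt1, on chromosome 6 (87042846 to 87092207), had 54.2, 57.9 and 59.2 CPM against 80.35, 82.2 and 88.0 CPM. Its groups did not overlap either, but the difference was smaller, 1.46-fold (log2 fold change -0.55, SE 0.08, edgeR adjusted p = 4.26e-05). Over the members, the groups did not overlap for the 4 called lower and the 1 called higher. The same held for 52.2% of all genes tested, 26.9% lower and 25.2% higher in HAS2_Tg. Some Gfpt1 counts are not whole numbers, as happens when reads are shared with another gene.

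Within each library the balance of the 2 paralogs differed as well. The ratio of Gfpt2 to Gfpt1, in FPKM, the authors' unit of fragments per length and library total, was 1.69, 1.51 and 1.59 in HAS2_Tg and 3.35, 3.59 and 2.92 in Has2_KO. Per length, Gfpt2 was thus the more abundant of the pair in all 6 libraries, and by a wider margin in Has2_KO. In CPM, which does not divide by length, Gfpt2 was below Gfpt1 in HAS2_Tg (means 43.3 and 57.1). It was above Gfpt1 in Has2_KO (129.9 and 83.5). The order in HAS2_Tg therefore rests on the lengths used, 2986 bases for Gfpt2 and 6248 for Gfpt1. The FPKM ratio does not depend on how libraries are scaled to each other. The difference was 2.05-fold (exact permutation test, two-sided, p = 0.1, the smallest that 3 against 3 libraries allow, and 0.133 after adjustment over the 4 ratios examined).

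The later steps to UDP-GlcNAc differed less or not detectably. Pgm3, the phosphoacetylglucosamine mutase, on chromosome 9 (86552476 to 86571878), had 15.8, 15.7 and 16.2 CPM in HAS2_Tg and 19.0, 21.8 and 18.2 CPM in Has2_KO, with no overlap (log2 fold change -0.31, SE 0.10, edgeR adjusted p = 0.0278). This call ended without Has2_KO replicate 8 (adjusted p = 0.14), without replicate 7 (0.0554), without HAS2_Tg replicate 5 (0.0745) and with the DESeq2 Wald test (0.0743), over a range of 0.00155 to 1 in all alternatives. In the GENCODE annotation, 1027 of 2667 exonic bases of Pgm3 are shared with Dop1a on the opposite strand. Dop1a had a log2 fold change of -0.29 (SE 0.09). The length used in the counting was 4582 bases, and the overlap within it was not measured. No source used here gives the strand setting of the counting, so reads of the pair may not be separate.

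Gnpnat1, the acetyltransferase, on chromosome 14 (45376421 to 45388987), had 27.2, 23.6 and 22.3 CPM in HAS2_Tg and 25.6, 27.0 and 27.7 CPM in Has2_KO. The groups overlapped, through HAS2_Tg replicate 4 alone, and the difference did not pass (log2 fold change -0.14, 95% interval -0.35 to 0.08, edgeR adjusted p = 0.293). Of its 3590 exonic bases in GENCODE, 3376 are shared with Styx on the opposite strand (-0.28, SE 0.09). The length used in the counting was 2536 bases, and the overlap within it was not measured. The Gnpnat1 value may thus be a mixture of both genes. Uap1, the pyrophosphorylase that makes UDP-GlcNAc itself, on chromosome 1 (170141223 to 170174964), had 40.7, 43.0 and 46.05 CPM against 42.3, 45.35 and 47.7 CPM. These values lay among each other (log2 fold change -0.06, interval -0.24 to 0.12, edgeR adjusted p = 0.605). The interval bounds a fall of Uap1 at a log2 change of -0.24, well short of that of Gfpt2. Both genes were called lower with total counts (Gnpnat1 -0.31, adjusted p = 0.0172, and Uap1 -0.23, adjusted p = 0.0364).

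On the UDP-glucuronate side the second enzyme differed and the first did not pass. Ugdh, the UDP-glucose dehydrogenase, on chromosome 5 (65413207 to 65435842), had 108.4, 105.0 and 120.7 CPM in HAS2_Tg and 142, 165 and 149 CPM in Has2_KO. The highest transgenic library stayed below the lowest knockout library (1.36-fold lower in HAS2_Tg, log2 fold change -0.45, SE 0.08, edgeR adjusted p = 0.000521). Ugp2, the UDP-glucose pyrophosphorylase, on chromosome 11 (21321126 to 21371267), had 74.6, 71.6 and 70.8 CPM against 71.7, 61.7 and 62.6 CPM. Its groups overlapped through Has2_KO replicate 7 (log2 fold change 0.15, interval -0.03 to 0.32, edgeR adjusted p = 0.165), and the sign turned with total counts (-0.03, adjusted p = 0.803). In GENCODE, 158 of the 2550 exonic bases of Ugdh are shared with Gm43552 on the same strand. For Ugp2, 78 of 2870 are shared with Gm12043 on the opposite strand. The FPKM ratio of Ugdh to Ugp2 was 1.83, 1.85 and 2.15 in HAS2_Tg and 2.5, 3.37 and 3.0 in Has2_KO. All knockout ratios lay above all transgenic ratios, by 1.51-fold (exact permutation p = 0.1, adjusted 0.133).

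Nagk, the kinase that salvages GlcNAc released in lysosomes, was the only member called higher in HAS2_Tg. On chromosome 6 (83794983 to 83802556), it had 44.8, 39.8 and 36.35 CPM in HAS2_Tg and 31.2, 30.9 and 30.7 CPM in Has2_KO. The knockout libraries were nearly equal, and replicate 4 was the highest of the spread transgenic values (log2 fold change 0.38, SE 0.09, edgeR adjusted p = 0.00405). The call ended with total counts (0.21, adjusted p = 0.0777) and in the FPKM fits, and held with each library left out in turn (0.30 to 0.45), over a range of adjusted p from 0.000914 to 1 in all alternatives. Against the summed FPKM of Gfpt1 and Gfpt2, Nagk stood at 1.48, 1.32 and 1.14 in HAS2_Tg and 0.430, 0.395 and 0.428 in Has2_KO. Per length, the salvage gene was thus above the amidotransferase pair in each transgenic library and below it in each knockout library. In CPM, which does not divide by length, Nagk was below Gfpt1 alone in each transgenic library (means 40.3 and 57.1). The difference of the FPKM ratio was 3.13-fold (exact permutation p = 0.1, adjusted 0.133), with the lower Gfpt2 of HAS2_Tg in the denominator.

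**Figure D2:**
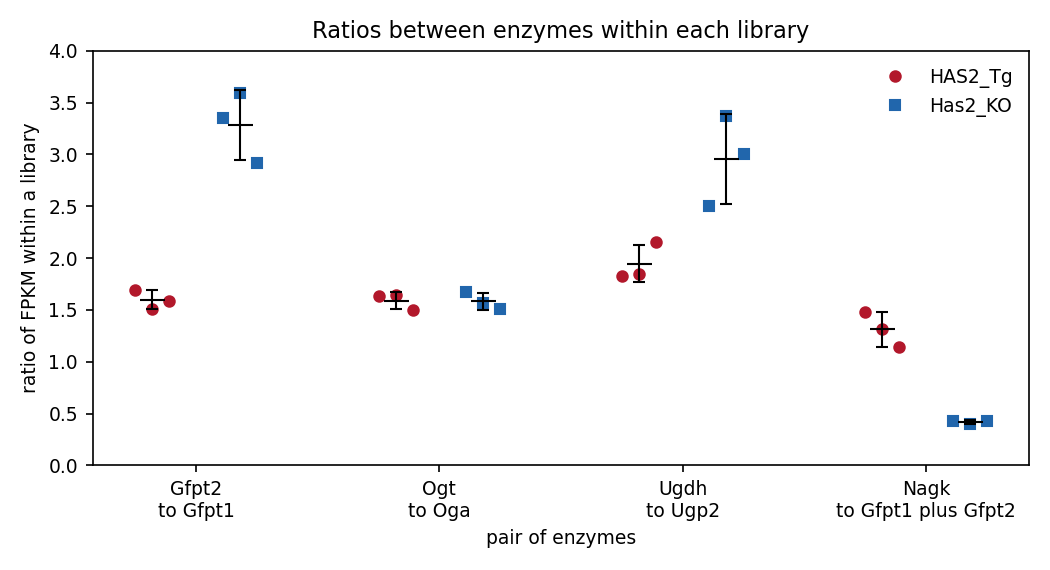
FPKM ratio of 4 pairs of enzymes (y axis, no unit) in each library, with circles for HAS2_Tg, squares for Has2_KO, and the mean and SD of 3 libraries in black. The groups are apart for Gfpt2 to Gfpt1, Ugdh to Ugp2 and Nagk to the Gfpt pair, and lie on each other for Ogt to Oga.

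The enzymes that put GlcNAc on proteins and take it off did not pass the test. Ogt, the X-linked transferase (chromosome X, 101640011 to 101684351), had 152.8, 165.9 and 163.0 CPM in HAS2_Tg and 169.8, 165.7 and 168.3 CPM in Has2_KO. The ranges touched at 1 library of each group (log2 fold change -0.06, interval -0.22 to 0.09, edgeR adjusted p = 0.498). Oga, the hydrolase, on chromosome 19 (45750255 to 45783644), had 83.3, 89.9 and 96.6 CPM against 90.3, 94.1 and 99.05 CPM, which overlap (-0.07, interval -0.24 to 0.10, edgeR adjusted p = 0.507). In GENCODE, 551 of the 6021 exonic bases of Oga are shared with Gm15491 on the opposite strand. HAS2_Tg replicate 4 was the lowest library for both Ogt and Oga. With total counts both were called lower, by nearly the same amount (Ogt -0.24, adjusted p = 0.0151, and Oga -0.25, adjusted p = 0.0218). The ratio of Ogt to Oga was 1.63, 1.64 and 1.5 in HAS2_Tg and 1.67, 1.57 and 1.51 in Has2_KO, a difference of 1.01-fold (exact permutation p = 1).

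In the order of the members by level per length, Gfpt2 changed place the most between the groups. Ugdh was the most abundant in both groups, at 42.5 ± 2.91 FPKM in HAS2_Tg and 65.4 ± 4.97 in Has2_KO (SD, n = 3), and Pgm3 the least, at 3.23 ± 0.06 and 4.52 ± 0.43 FPKM. Gfpt2 was second of the 10 in Has2_KO, at 46.0 ± 3.30 FPKM, and the seventh in HAS2_Tg, at 13.6 ± 0.33 FPKM. In HAS2_Tg the order was Ugdh, Nagk, Ogt, Ugp2, Uap1, Oga, Gfpt2, Gnpnat1, Gfpt1 and Pgm3, and the library ranges of Nagk and Ogt, of Uap1 and Oga, and of Gnpnat1 and Gfpt1 overlapped. In Has2_KO it was Ugdh, Gfpt2, Ogt, Nagk, Ugp2, Uap1, Oga, Gfpt1, Gnpnat1 and Pgm3, and only Ugp2 with Uap1 and Uap1 with Oga overlapped among neighbours.

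**Figure D3:**
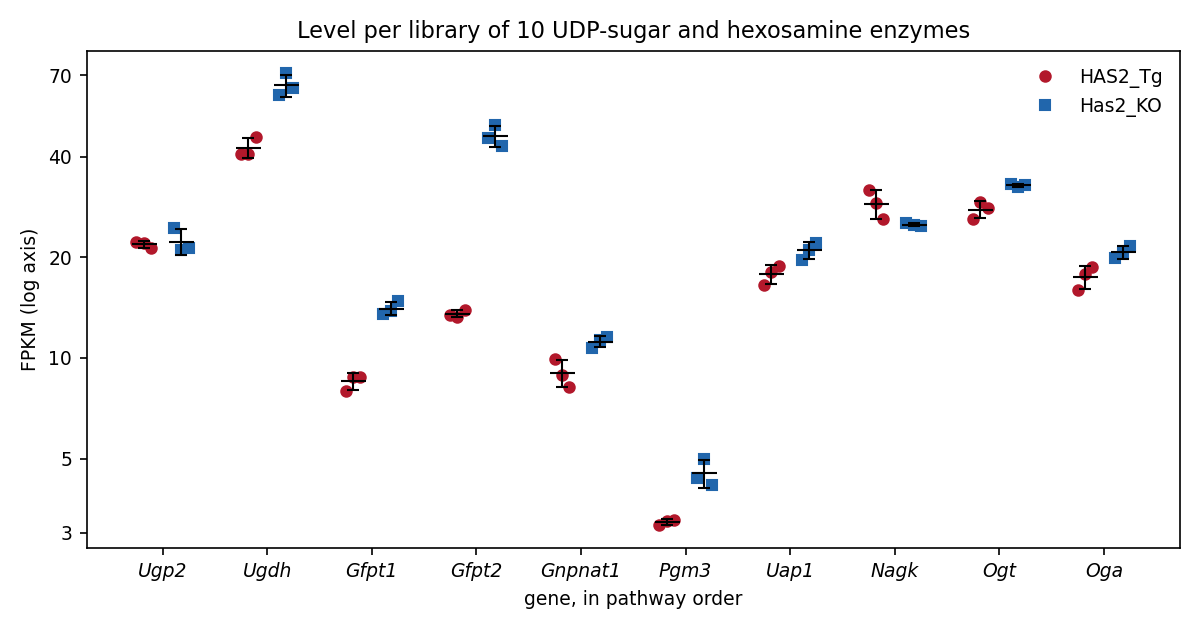
Level of each member in FPKM (y axis, log scale) in each library, in pathway order, with circles for HAS2_Tg, squares for Has2_KO, and the mean and SD of 3 libraries in black. Gfpt2 is among the highest members in Has2_KO (46.0 FPKM) and among the lower ones in HAS2_Tg (13.6 FPKM). FPKM values are scaled by library totals, so Gnpnat1, Uap1, Ogt and Oga separate more here than in TMM-scaled CPM.

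The genes whose pattern was most like that of Gfpt2, among 12765 genes with counts in every library, were Plau, Prkaa2 and Arhgap20. Likeness was the Euclidean distance of log2 CPM centred on each gene's mean over the 6 libraries. Plau, the urokinase plasminogen activator, was at a distance of 0.135, with 20.8 ± 1.09 CPM in HAS2_Tg and 60.1 ± 1.83 in Has2_KO. Prkaa2, a catalytic subunit of AMP-activated kinase, was at 0.156 (6.16 ± 0.18 and 17.97 ± 0.63 CPM), and Arhgap20, a GTPase activating protein, at 0.176 (1.64 ± 0.09 and 4.64 ± 0.42 CPM). With 6 libraries in 2 groups, this distance reads mainly the size of the group difference.

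Among the other genes around the pathway, those that bring in hexose changed both ways. Of 9 tested genes of hexose uptake and phosphorylation, 2 were higher and 5 lower in HAS2_Tg (median log2 fold change -0.41). Among all genes tested, 20.2% were higher and 20.5% lower. Slc2a1, the glucose transporter GLUT1, was 100.3 ± 8.47 against 64.6 ± 1.44 CPM (0.63, SE 0.08), and Hk1, the widely expressed hexokinase, 270.1 ± 18.8 against 190.2 ± 6.84 CPM (0.51, SE 0.08). The hexokinases Hk3 (-5.34, SE 0.26) and Hk2 (-1.21, SE 0.14) and the phosphoglucomutase Pgm2 (-0.41, SE 0.08) fell, as did Slc2a3 (-1.45) and Pgm2l1 (-0.50), named after their values were seen. Gpi1, the isomerase that makes fructose 6-phosphate, had -0.07 and did not pass. Hk3 had 8 counts over the HAS2_Tg libraries and 390 over the Has2_KO libraries, so its fold rests on few counts in HAS2_Tg. It is known mainly from myeloid cells, and macrophage markers summed to 15.3 to 17.6 CPM in HAS2_Tg and 622 to 666 in Has2_KO. The part of such cells in the Hk3 difference was not tested.

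Genes that supply glutamine and uridine nucleotides were more often lower than higher. Of 18 tested, 10 were lower and 1 higher (median -0.25), and with total counts 14 were lower and none higher. Among all genes tested, 20.5% were lower and 20.2% higher, and with total counts 37.1% and 11.3%. The glutamine transporters Slc38a1 (0.85 ± 0.35 against 6.51 ± 0.35 CPM, log2 fold change -2.92, SE 0.25) and Slc1a5 (18.6 ± 1.78 against 25.5 ± 1.45 CPM, -0.45, SE 0.10) fell. Upp1, a uridine phosphorylase, had 1 count over the transgenic libraries and 112 over the knockout libraries, a ratio of 96.7 scaled by TMM-adjusted totals with a 95% exact interval of 17.0 to 3853. Nme2, a nucleoside diphosphate kinase, was higher (0.32, SE 0.09), and its call ended with total counts (0.14, adjusted p = 0.162). Macrophage and endothelial markers were lower in the same HAS2_Tg libraries, and the part of those cells in these differences was not tested.

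The branches beside the members held genes called in both directions, beside the 40.7% called among all genes tested. Of 5 genes of the galactose branch, the other source of UDP-glucose, Galt (0.50, SE 0.14) and Galm (0.31, SE 0.12) were higher and none was lower, but neither passed with total counts (adjusted p = 0.0615 and 0.356). Of 8 tested users of UDP-glucose and UDP-glucuronate, Has2 and the glycogen primer gene Gyg (0.45, SE 0.10) were higher and none was lower (median 0.03), with 1 lower under total counts. Amino sugar recycling and sialic acid genes split 2 higher and 3 lower of 12 (median 0.08, or -0.09 with total counts). Hexa, a lysosomal hydrolase gene, was higher (0.28, SE 0.08) and did not pass with total counts (adjusted p = 0.303). Gnpda1, which turns glucosamine 6-phosphate back into fructose 6-phosphate, was lower (30.1 ± 3.24 against 46.0 ± 5.26 CPM, -0.61, SE 0.11), as were the sialic acid genes Cmas (-0.42, SE 0.10) and Npl (-3.63, SE 0.49). Npl had 5 counts over the HAS2_Tg libraries and 76 over the Has2_KO libraries, so its fold rests on few counts.

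Of 8 nucleotide sugar transporters 1 was lower, Slc35a3, which carries UDP-GlcNAc into the Golgi (22.4 ± 1.52 against 31.1 ± 2.24 CPM, -0.47, SE 0.10), and none was higher (median below 0.01 in size, and -0.17 with total counts). Of 15 users of UDP-GlcNAc outside the hyaluronan synthases 4 were lower and 1 higher (median -0.01). Mgat4a (-2.99, SE 0.34) and Gcnt1 (-3.01, SE 0.36), both branching enzymes of glycans, were under 3 CPM in both groups, Gcnt2 had -0.62 (SE 0.16), and Mgat5 (-0.68) was named after its value was seen. Alg14, a subunit of the enzyme that adds the second GlcNAc to the N-glycan precursor, was higher (0.37, SE 0.13) and did not pass with total counts (adjusted p = 0.215). Among 12 regulators described for the pathway 1 was higher and 5 lower (median -0.12). Ern1, the IRE1 sensor whose RNase activates Xbp1, was 40.9 ± 12.5 against 104.5 ± 1.39 CPM (-1.35, SE 0.19), Nfe2l2 had -0.42 (SE 0.07) and Sp1 -0.38 (SE 0.11), while Ddit3 was higher (0.49, SE 0.08). Myc (-0.21) and Xbp1 (-0.22) also fell and were named after their values were seen. With total counts the genes called lower rose to 3 of the transporters, 7 of the UDP-GlcNAc users, 9 of the regulators and 5 of the recycling genes. Under that scaling 37.1% of all genes tested were called lower, beside 20.5% with TMM, and the median of all genes was -0.18.

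**Figure D4:**
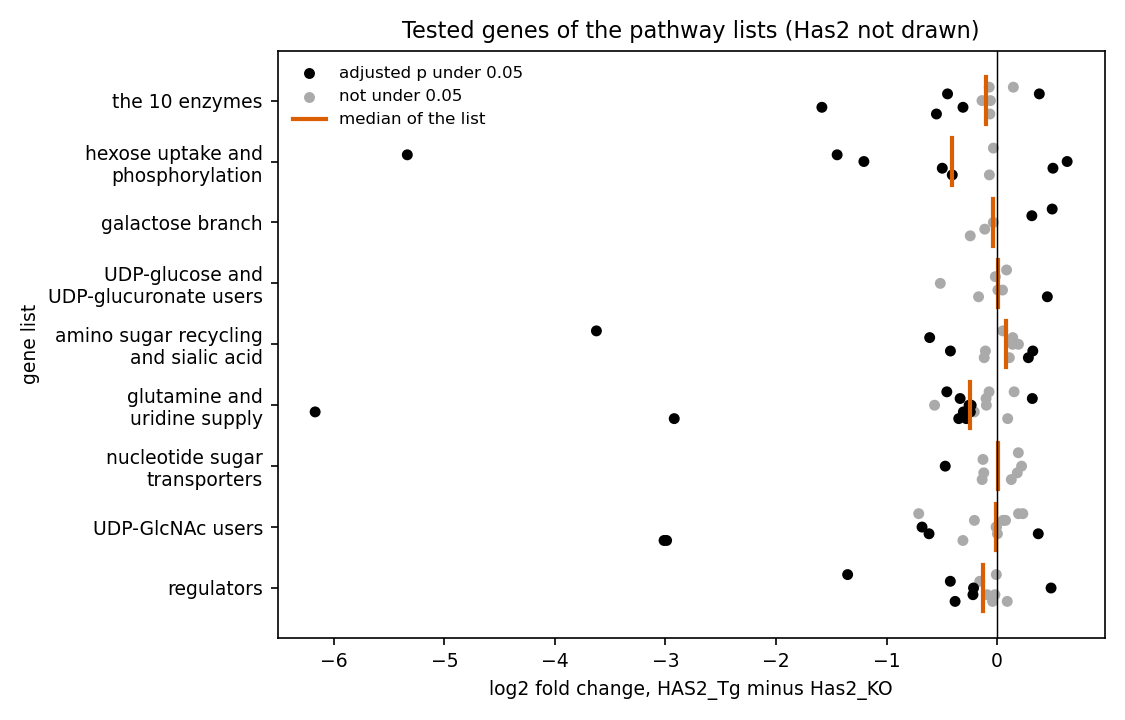
Log2 fold change, HAS2_Tg minus Has2_KO (x axis), of each tested gene of the pathway lists (1 row per list), black where the adjusted p was under 0.05 and grey otherwise, with an orange bar at the list's median. Has2 is not drawn because 1 count per knockout library gives no stable fold. Most genes lie within 1 log2 unit of 0, and the far points to the left are Upp1, Hk3, Npl, Gcnt1, Mgat4a and Slc38a1.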

How the data were processed

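RNA of 6 libraries was sequenced on the BGISEQ-500 platform and quantified with RSEM on mm10, per the submitters' processing notes. Expected counts (estimated reads per gene) and FPKM values, which divide by gene length and library total, are as the authors deposited them, per the file headers. Genes missing from a file were set to 0. Of 17909 identifiers 17857 were named through RefSeq (GRCm38.p6, the assembly of mm10). Total expected counts were 11961726 to 12423220 per library. Libraries of a group differed by more than sampling noise, and none was a copy of another. Chi-square over its degrees of freedom was 2.31 to 3.17 between Has2_KO libraries and 6.24 to 31.5 between HAS2_Tg libraries. Each library was counted once, but such a spread does not show that the libraries came from separate mice.

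Counts were rounded and low genes removed with filterByExpr. After TMM scaling, edgeR 4.0.16 (R 4.3.3) gave robust quasi-likelihood tests, two-sided, with Benjamini-Hochberg adjustment over all genes at 0.05. The SE was derived as the absolute log2 fold change over the root of F. Intervals are 95%, and those of count ratios cover counting error only. Ratios between members were compared by exact permutation. The code was tested on simulated data with few changed genes, in both directions, and the same noise setting for every gene. Such data cannot test the choice of scaling, as far more genes differed in the real libraries. Members, lists and tests were chosen with earlier results of these data known. Genes outside the members were named by a rule: up to 3 per list and direction by adjusted p, Has2, and the 3 genes nearest in pattern to the member with the largest change. Alternatives replaced TMM (by total counts, upper quartiles or size factors of DESeq2 1.42.0), dropped the filter or raised it (1 CPM in all libraries of either group and 5 CPM on average), used the Wald test of DESeq2, used limma 3.58.1 on FPKM with a pseudocount of 1 or 0.1 (with an FPKM of 1 in 3 libraries, or unfiltered), lowered the adjusted p to 0.01, tested against a fold of 1.5, or left out each library.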

Additional observations from a re-analysis of the deposited data

How the results depend on the processing

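Gfpt2 was called lower in all 17 alternatives (log2 fold change -1.76 to -1.53), and Gfpt1 and Ugdh in all but the test against a fold of 1.5. That test left 0 members higher, 1 lower and 1597 genes called in all. With total counts 0 members were higher and 8 lower, as with limma on log2(FPKM + 1) and on log2(FPKM + 0.1), and without a filter limma gave 0 and 7. Ugp2 changed sign in these 4 fits, to -0.0274 with total counts, -0.0237 with limma on log2(FPKM + 1), filtered or not, and -0.0245 on log2(FPKM + 0.1), and passed in none. With each library left out, 1 member was higher in every case, 3 to 4 were lower and 4188 to 5624 genes were called in all. The differences in log2 FPKM ratio then ranged from -1.12 to -0.97 for Gfpt2 to Gfpt1, -0.71 to -0.50 for Ugdh to Ugp2, 1.56 to 1.74 for Nagk to the Gfpt pair and -0.03 to 0.05 for Ogt to Oga. In CPM, which weights the Gfpt genes without length, the Nagk ratio differed by 1.47 in place of 1.65. Apart from the construction of each scaling, the cause of these changes was not tested. No paired analysis was possible because the groups share no replicate numbers.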
